A study of Drosophila melanogaster with 2 samples.

Results

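The 38 RNAs described here are the long noncoding RNAs listed at a measurable level in RNA precipitated from Drosophila melanogaster ovaries. They were taken from 1924 annotated loci whose symbol begins with lncRNA: or sisRNA:, roX1, roX2 and Hsromega left aside, selected on their measured level: a usable estimate (status OK) in each of the 2 libraries, and a mean of 1 FPKM or more over them. FPKM is the number of sequenced fragments scaled by transcript length and library size. The whole tables list 17720 genes, of which 6025 meet the same 2 conditions and are called eligible genes. Since the members were chosen by their FPKM, those levels are given as a description.

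RNA immunoprecipitation sequencing was done on ovaries of the wild-type strain Oregon-R, from young females collected at most 12 hours after eclosion, about 200 per precipitation. A single lysate was divided between an antibody against Lsd1 (Lsd1-RIP, below the Lsd1 library) and, for the library titled IgG-RIP (below the control library), an antibody that the labels give as anti-GFP. The control served to normalise the abundance of each transcript, and the labels name no GFP transgene. Both groups therefore share strain, age, tissue and lysate, and they differ in the antibody. There was 1 library per group, from pooled animals, so the groups could not be tested against each other and values are given without p-values. Per the labels, the kit was TruSeq RNA version 2 without the poly(A) selection. That kit does not mark strand, so reads of an RNA and of a gene on the other strand cannot be told apart.

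Long noncoding RNAs are transcripts that are spliced and capped much as mRNAs are but carry no long reading frame. In the fly ovary the best known is the flamenco transcript, which is cut into piRNAs that silence retrotransposons in the follicle cells. Others are primary transcripts from which microRNAs are cut, or stable intronic sequence RNAs (sisRNAs), pieces of intron that persist after splicing. Lsd1, encoded by Su(var)3-3, removes methyl groups from a lysine of histone H3 and acts in gene silencing.

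Ovarian markers were present in both libraries, except that grk was listed at 0 in the control library. All 8 germline and all 7 follicle cell markers reached a mean of 1 FPKM, with summed FPKM of 142 and 514 in the control and 264 and 628 in the Lsd1 library. None of 8 testis markers did (summed 0.228 and 0.502), and tomb, nht, comr and Mst84Da were listed at 0. Muscle markers, which the ovarian sheath expresses, summed to 128 and 110, and fat body, neuronal and gut markers to at most 1.16 in either library. From these last lists the gut marker Mal-A1 alone reached a mean of 1 FPKM (1.14 and 1.13, from 32.1 and 28.0 fragments). The part of any of these cells in the levels below was not tested, and in whole ovaries fewer cells of a type and less RNA per cell cannot be told apart. By an approximate number of fragments derived from the deposited bounds, the libraries held 2661722 (control) and 2494964 (Lsd1) fragments on listed genes. Of these, 1039524 and 1201797 lay outside ribosomal RNA loci, and the 38 members held 2515 and 2918. Deposited bounds, called intervals here, lie about 2 standard deviations from the FPKM and cover at most counting error and the assignment of fragments to transcripts.

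Few annotated long noncoding RNAs were above 0. Of the 1924 loci, 1522 (79.1%) were listed at 0 in both libraries, 189 were above 0 in both, 97 in the control library alone and 116 in the Lsd1 library alone. Thus 402 loci were above 0 in at least 1 library, beside 10295 of the 17720 listed genes, counted with status OK. Listings above 0 in a single library were not counted over all genes. Whatever their status, 9435 listed genes were above 0 in the control library and 9542 in the Lsd1 library. A listing at 0 need not mean absence: the germline gene grk was listed at 0 in the control library and at 3.19 FPKM, from 71.3 fragments, in the Lsd1 library. Of the loci above 0 in both, 155 had a mean under 1 FPKM. Only 7 members reached a mean of 5 FPKM and 4 reached 10. The members lay on X (11), 3L (9), 3R (8), 2L (5) and 2R (5). Their loci spanned 186 to 158841 nt with a median of 657 nt, close to the 653.5 nt of all 1924. RefSeq (Release 6 plus ISO1 MT, the assembly of dm6) had all 38 at the same span, 36 by symbol and 2 by synonym, 25 of them with 1 transcript and 13 with several. It lists 35 as lncRNA, sisRNA:CR46357 as ncRNA, lncRNA:CR46194 as antisense RNA and lncRNA:IBIN as protein-coding. Base sequences of these loci were not used here.

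**Figure D1:**
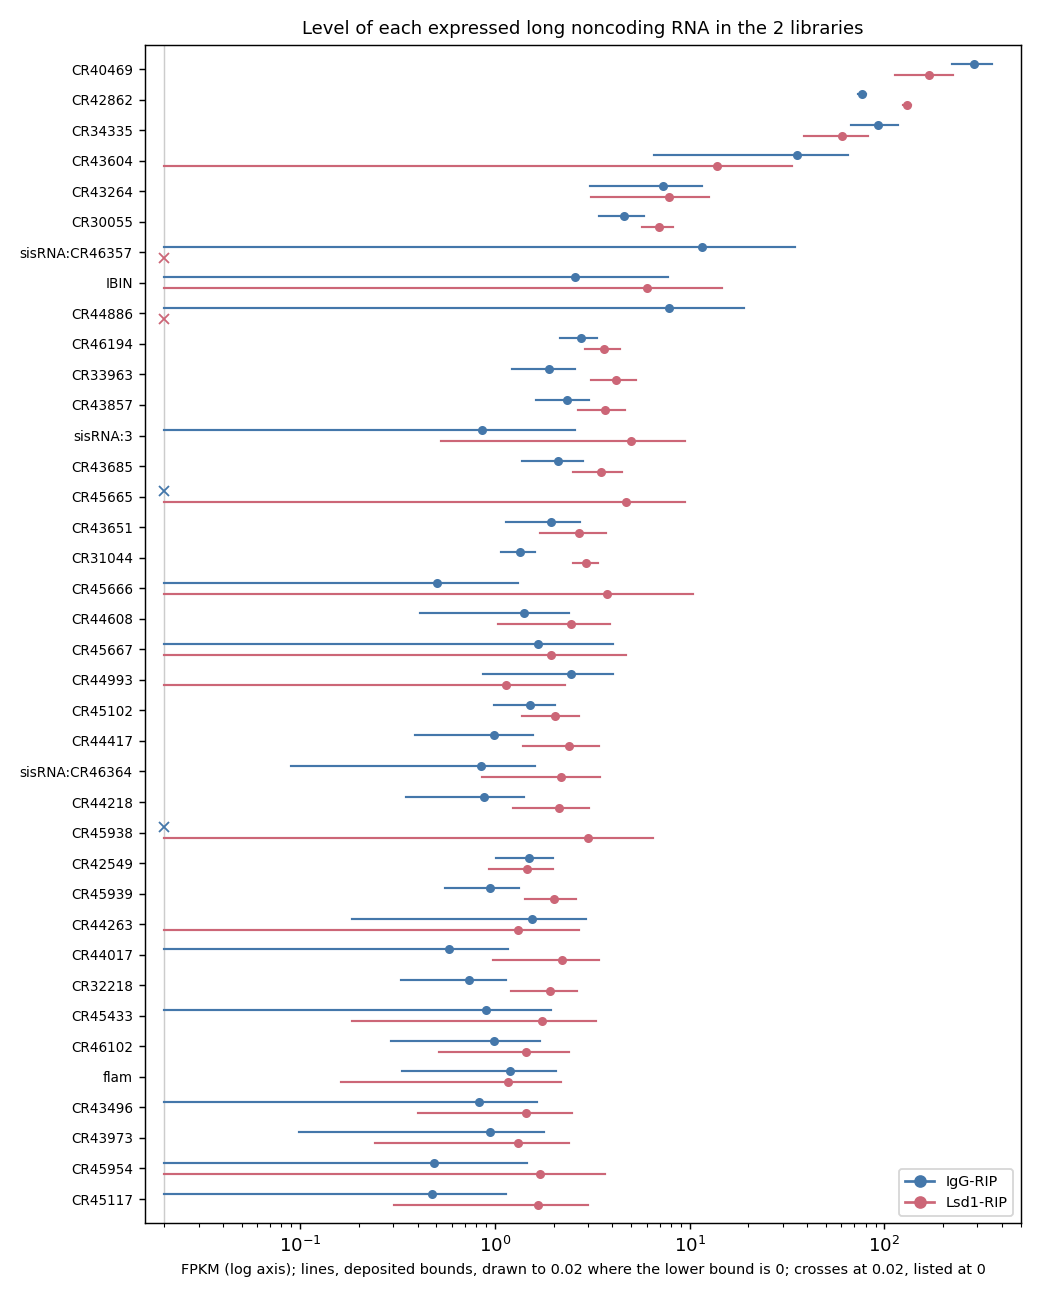
FPKM of the 38 expressed long noncoding RNAs in the control, IgG-RIP (blue) and Lsd1-RIP (red) libraries on a log axis, ordered by mean level, with the lncRNA: prefix left out. Points are the deposited FPKM, lines the deposited bounds, and crosses mark an RNA listed at 0; most lines of the 2 libraries overlap, and lncRNA:CR42862 and lncRNA:CR31044 are among the 5 whose lines do not.

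Most members, 30 of 38, lay within 2-fold between the libraries. The measure, called the log2 ratio, was the difference between the Lsd1 and control libraries in log2(FPKM + 1), and the added 1 understates the change of RNAs at a low level. The median of the 38 was 0.52, beside 0.32 for all 6025 eligible genes, and 23 of the 38 lay above that all-gene median, as did 50% of eligible genes by construction. By this measure 5 members passed 2-fold with the higher value in the Lsd1 library and 3 with the lower, against backgrounds of 2.12% and 0.697% of eligible genes. All 8 rested on 13 or fewer fragments in either library. Of the 8, 4 (lncRNA:CR45665, lncRNA:CR45938, sisRNA:CR46357 and lncRNA:CR44886) were listed at 0 in one library, as were 1.01% of eligible genes. Those 4 met the mean of 1 FPKM through the other library alone and so had to differ, and nothing is read from their share. Without them the counts were 3 and 1 of 34, beside 1.71% and 0.117% of eligible genes above 0 in both. The 3 higher ones, sisRNA:3, lncRNA:CR45666 and lncRNA:CR44017, had a control FPKM of 0.853, 0.501 and 0.580. Being under 1 there, they met the mean through the Lsd1 library, and nothing is read from their share. Of the 13 members with 20 or more fragments in each library, 0 were past 2-fold in either direction (backgrounds among such genes, 1.61% and 0.0548%), and their log2 ratios ran from -0.77 to 0.84 with a median of 0.48, beside 0.33 for all such genes. Of the 13, 8 lay above the all-gene median, as did 50.8% of such genes.

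Plain ratios of FPKM gave more calls. Of the 34 members above 0 in both libraries, 13 then passed 2-fold upward and 2 downward. The backgrounds among eligible genes above 0 in both were 8.75% and 0.319%. Of the 13 upward, lncRNA:IBIN, lncRNA:CR31044 and lncRNA:CR33963 had a control FPKM of 1 or more (2.58, 1.34 and 1.89). The others were under 1 there and met the mean through the Lsd1 library, so nothing is read from the upward share. Among the 13 members with 20 or more fragments, 3 were higher by this rule (background 7.77%), lncRNA:CR33963, lncRNA:CR31044 and lncRNA:CR45939, and 0 were lower (background 0.0731%). Across the 34, 27 had a higher FPKM in the Lsd1 library and 7 a lower one. Most eligible genes were also higher there, since the lower quartile of their log2 ratio was 0.13. The libraries' log2 FPKM had a Pearson r of 0.914 over these 34 RNAs, which share the same 2 libraries.

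The deposited intervals of 5 members did not overlap between the libraries, all with the higher level in the Lsd1 library (13.2% of 38; background 36.1% higher), and 0 members had the opposite order (background 1.64%). The 5 were lncRNA:CR42862, lncRNA:CR31044, lncRNA:CR33963, lncRNA:CR32218 and lncRNA:CR45939. The members were also shallower, with a median of 8 and 11 fragments against 86.4 and 101 for eligible genes. Among members with 20 or more fragments in each library, 4 of 13 were apart (30.8%), beside 38.7% of such genes, and 0 of 13 were apart in the opposite order, beside 1.19%.

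**Figure D2:**
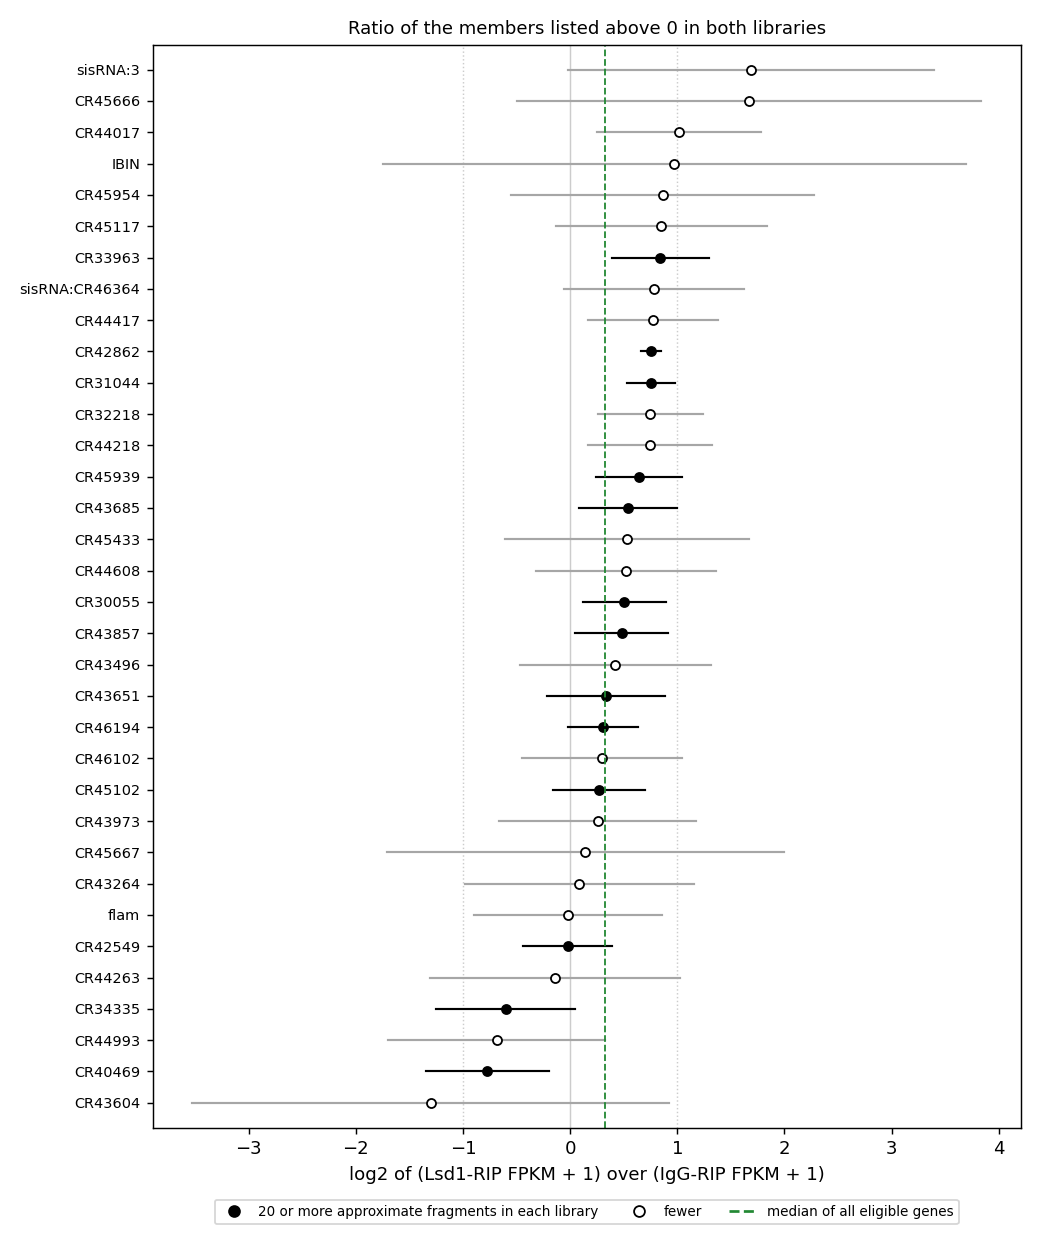
Log2 ratio, with an interval of 2 standard errors from the deposited bounds, for the 34 members above 0 in both libraries. Filled points have 20 or more approximate fragments in each library; they run from lncRNA:CR40469 at -0.77 to lncRNA:CR33963 at 0.84, around the all-gene median of 0.32 (dashed), while open points spread more widely.

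The highest levels belonged to 3 RNAs of very different size, which together held 81.5% of the members' summed FPKM in the control library and 77.4% in the Lsd1 library. lncRNA:CR42862 (3L:224106-230964) is a locus of 6859 nt whose end nearer the start of the arm overlaps CG33229, a gene listed at 0 in both libraries. It had an FPKM of 76.9 (bounds 73.2 to 80.5) in the control and 131 (125 to 137) in the Lsd1 library. It carried most of the members' fragments, 71.0% and 66.2%, so it is the best measured of them. The plain fold was 1.70 and the log2 ratio 0.76 (interval 0.66 to 0.85). By fragments scaled for depth the fold was 1.26, or 0.34 on the log2 scale, so it lay above the all-gene median by FPKM and below the 0.43 that is the median of eligible genes by fragments.

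The other 2 abundant RNAs are short X-linked loci and had the lower level in the Lsd1 library. lncRNA:CR40469 (X:122493-122706, 214 nt), with no listed gene between it and the start of X and free of other loci, had the highest mean of any member, with an FPKM of 290 (223 to 356) in the control and 169 (114 to 224) in the Lsd1 library. Its bounds met by a narrow margin, and the log2 ratio was -0.77 (interval -1.35 to -0.20), 1.71-fold lower. lncRNA:CR34335 (X:3545750-3546110, 361 nt) went from 92.5 (67.1 to 118) to 60.6 (38.5 to 82.8), a log2 ratio of -0.60 (-1.25 to 0.05). It lies inside DIP-alpha, the gene of an immunoglobulin-domain cell surface protein, which had an FPKM of 0.485 and 0.718. Of the 34 intervals on log2 ratios, those of these 2 RNAs were the ones wholly below the all-gene median. Those of lncRNA:CR42862, lncRNA:CR31044 and lncRNA:CR33963 were wholly above it. The share of eligible genes with such intervals was not counted. By the related rule of bounds centred on that median, 2 of the 38 members were apart higher and 2 lower. Among eligible genes the shares by that rule were 15.8% and 5.28%.

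A high FPKM did not always mean many fragments. In the 17 members of at most 600 nt, 1 FPKM corresponded to 0.0865 to 5.92 fragments (median 1.17), and in the 21 longer ones to 0.254 to 78.6 (median 16.1). Thus lncRNA:CR40469 rested on 75.1 and 37.6 fragments despite its level. lncRNA:CR43604 (2L:8485725-8485925, 201 nt) had rank 4 by mean FPKM and rank 28 by fragments. It had an FPKM of 35.6 (6.53 to 64.7) and 13.9 (0 to 33.5), from 6 and 1.99 fragments, and its log2 ratio of -1.30 had an interval from -3.52 to 0.92. It lies inside d, which encodes the atypical myosin Dachs and had an FPKM of 0.0879 and 0.128. lncRNA:CR43264 (X:5831898-5832215), with rank 5 by mean FPKM and inside CG15765, a gene listed at 0, had 7.29 and 7.81 FPKM, with bounds of 3.07 to 11.5 and 3.10 to 12.5 that overlap almost fully.

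**Figure D3:**
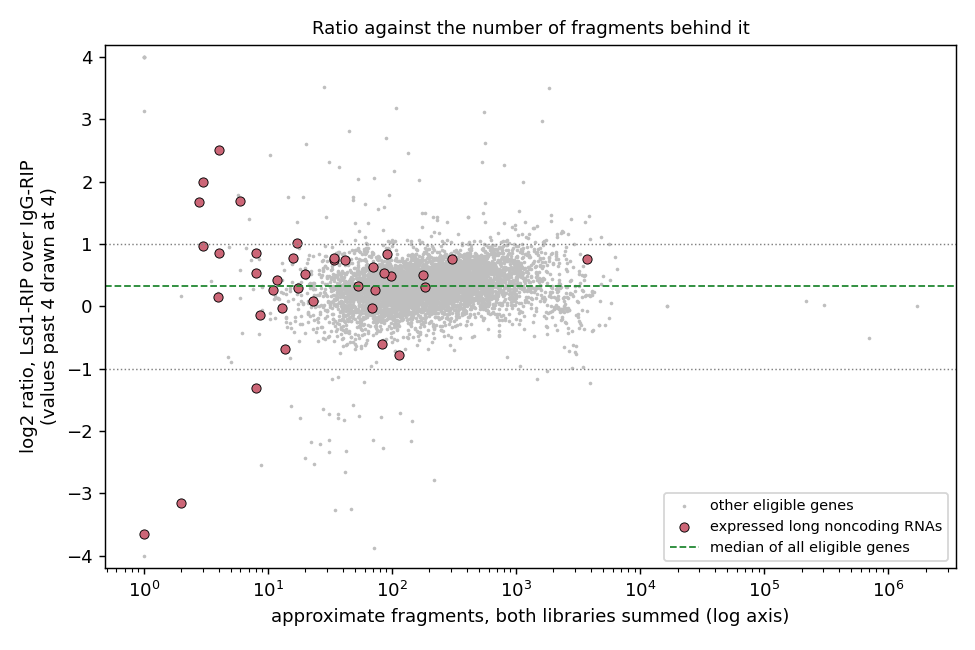
Log2 ratio against the summed approximate fragments of both libraries (log axis) for members (red) and the other eligible genes (grey), with the all-gene median dashed and 2-fold dotted. Members past 2-fold lie at 17.0 fragments or fewer, and those with more lie between -0.77 and 0.84; 9 genes past 4 are drawn at 4 and 4 genes under 0.5 fragments are left out.

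Among the better measured members are 4 loci that hold microRNA precursors, a grouping made after the values were seen. All 4 had 20 or more fragments in each library, and their log2 ratios of 0.31 to 0.76 had a median of 0.41, beside 0.32 for all eligible genes. The highest was lncRNA:CR31044 (3R:29214562-29219667, 5106 nt), which holds mir-279 and mir-996 and carries their primary transcript among its RefSeq synonyms. miR-279 is known to limit JAK-STAT signalling in border cells of the ovary. Its FPKM was 1.34 (1.08 to 1.60) in the control library and 2.95 (2.53 to 3.37) in the Lsd1 library, with 105 and 198 fragments. The bounds were apart, the log2 ratio was 0.76 (0.53 to 0.98), and the plain fold of 2.21 and the fragment fold of 2.19 were close. No other gene overlaps it except the 2 precursors.

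The remaining 3 of these loci had overlapping bounds. lncRNA:CR43857 (2L:7423820-7425932) holds mir-275 and ends 39 nt before mir-305, and it went from 2.34 (1.63 to 3.05) to 3.66 (2.68 to 4.65), a log2 ratio of 0.48. lncRNA:CR43651 (2R:9552844-9553940), listed in RefSeq as the primary transcript of mir-14, a microRNA that restrains cell death, had 1.94 (1.14 to 2.74) and 2.70 (1.71 to 3.70), a ratio of 0.34. lncRNA:CR46194 (2R:12169558-12171706) holds both mir-281 precursors. It lies inside Oda, the gene of ornithine decarboxylase antizyme, and overlaps SmD3, an Sm protein gene of the spliceosome. Its FPKM of 2.75 (2.15 to 3.34) and 3.63 (2.90 to 4.37) gave a ratio of 0.31, beside 0.51 for Oda and 0.19 for SmD3. All of these precursors were themselves listed at 0 in both libraries, as were all 258 listed genes whose symbol begins with mir-. The shortest of all eligible genes spanned 152 nt, longer than any of these precursors. Whether their length bears on the listing at 0 was not tested.

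flamenco and IBIN, 2 named RNAs with known roles, were both near the limit of measurement. lncRNA:flam (X:21631891-21790731), the piRNA cluster transcript, spans 158841 nt with 16 RefSeq transcripts and overlaps no other listed gene. It had an FPKM of 1.197 (0.331 to 2.06) in the control and 1.17 (0.161 to 2.17) in the Lsd1 library, from 7.65 and 5.38 fragments. The log2 ratio of -0.02 had an interval from -0.90 to 0.86, so a 1.5-fold change either way was not detectable at this depth. lncRNA:IBIN (2R:17671068-17671295), an RNA induced by infection, had 2.58 (0 to 7.75) and 6.04 (0 to 14.6), from 1 and 1.99 fragments. Its ratio of 0.97 (-1.75 to 3.69) leaves even its direction unsettled.

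Stable intronic sequence RNAs contributed 3 of the 38, out of 10 annotated, of which 6 were listed at 0 in both libraries. sisRNA:3 (3L:22269932-22270220), inside Csp, which encodes a synaptic vesicle chaperone, went from 0.853 (0 to 2.56) to 4.98 (0.526 to 9.44), a log2 ratio of 1.69 (-0.02 to 3.40). It rested on 1 and 5 fragments, and Csp itself had a ratio of 0.38. sisRNA:CR46364 (3R:25246874-25247422) lies in the ribosomal protein gene RpS27 and had 0.845 (0.0892 to 1.60) and 2.17 (0.862 to 3.48), a ratio of 0.78 beside 0.30 for RpS27. RpS27 held 960 and 992 fragments against 5 and 11 for the intronic RNA. sisRNA:CR46357 (3R:9630255-9630440), inside the calreticulin gene Calr, had an FPKM of 11.6 (0 to 34.7) from 1 fragment in the control and no listed level above 0 with Lsd1.

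Most members lie within another gene: of the 38, 21 were wholly inside another locus, 6 overlapped one in part or held a smaller one, and 11 were free. The medians of the log2 ratio were 0.51, 0.56 and 0.52. For 16 of the 21, the enclosing gene was eligible and the RNA was above 0 in both libraries. The noncoding RNA had the lower log2 ratio of the pair in 8 and the higher in 8, but by fragments it had the lower in 5 and the higher in 11. Of those 11, all but lncRNA:CR30055 and lncRNA:CR33963 had a control FPKM under 1 and met the mean through the Lsd1 library. So did lncRNA:CR43496 and lncRNA:CR46102 among the 5. Each host was above 1 FPKM in the control (lowest, mura at 1.01), so nothing is read from the split. The order turned in 3 pairs, lncRNA:CR30055 with Sin3A, lncRNA:CR44218 with kis and lncRNA:CR45117 with klar. In the control library the noncoding RNA carried 0.223% to 29.8% of the pair's fragments (median 1.504%). Intervals of RNA and host overlapped in 15 of the 16 pairs.

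The exception was lncRNA:CR30055 (2R:12589239-12591395) in Sin3A, the scaffold gene of a histone deacetylase corepressor. The RNA had 4.61 (3.41 to 5.80) and 6.96 (5.69 to 8.23) FPKM, a log2 ratio of 0.51 (0.12 to 0.89), while Sin3A had 5.85 and 14.3, a ratio of 1.16 (1.04 to 1.28). By fragments the difference was gone: lncRNA:CR30055 had 59.2 and 120, 2.37-fold with depth, or 1.24 on the log2 scale, beside 1.199 for Sin3A. The FPKM and fragment folds of this RNA differed 1.57-fold, more than any other member with 20 or more fragments.

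lncRNA:CR33963 (X:12659462-12660632), in Tis11, the gene of a zinc finger protein that promotes mRNA decay, went from 1.89 (1.22 to 2.57) to 4.19 (3.10 to 5.28). Its bounds were apart, its plain fold was 2.21, and its log2 ratio of 0.84 (0.39 to 1.29) was the highest of the 13 better measured members. Tis11 had 0.76 (0.52 to 0.996), and the intervals of RNA and host overlapped. lncRNA:CR42549 (3R:9548104-9551806), which ends at the same base as mura, a ubiquitin ligase gene that encloses it, had nearly the same level in both libraries, 1.503 (1.01 to 1.99) and 1.46 (0.936 to 1.99). mura went from 1.01 to 2.03, a ratio of 0.59 (0.37 to 0.82) beside -0.02 (-0.44 to 0.39), and these intervals overlap narrowly.

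Other hosts are genes of chromatin and transcription. lncRNA:CR32218 (3L:19895216-19896391) lies where Mi-2, the nucleosome remodeller, and Su(Tpl), the elongation factor ELL, overlap, and went from 0.736 (0.328 to 1.14) to 1.92 (1.205 to 2.63), with bounds apart and 13 and 29 fragments. Its ratio was 0.75, beside 0.41 for Mi-2 and 0.85 for Su(Tpl). lncRNA:CR44017 (3R:6408978-6409578) lies in gpp, the H3K79 methyltransferase gene, and went from 0.580 (0 to 1.16) to 2.20 (0.981 to 3.42). Its ratio of 1.02 (0.25 to 1.78) came from 4 and 13 fragments, and gpp had 0.96. In kis, a chromodomain remodeller gene with a ratio of 1.36, lncRNA:CR44218 (2L:248909-249812) had 0.875 and 2.14 FPKM, a ratio of 0.74. By fragments the order was the opposite, 1.27 on the log2 scale for lncRNA:CR44218 and 0.95 for kis.

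lncRNA:CR43496 (X:6758610-6759491), in the heterochromatin gene sov, had 0.823 and 1.44 FPKM, a ratio of 0.42 beside 0.99 for sov. lncRNA:CR44993 (2L:21628462-21628976) lies in Df31, which encodes a chromatin decondensation factor, and was one of the few with the lower level in the Lsd1 library, 2.45 (0.868 to 4.03) against 1.14 (0 to 2.29). Its ratio of -0.69 (-1.70 to 0.33) overlapped that of Df31, 0.02. Each of the enclosing genes named in these pairs had over 20 fragments in both libraries.

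**Figure D4:**
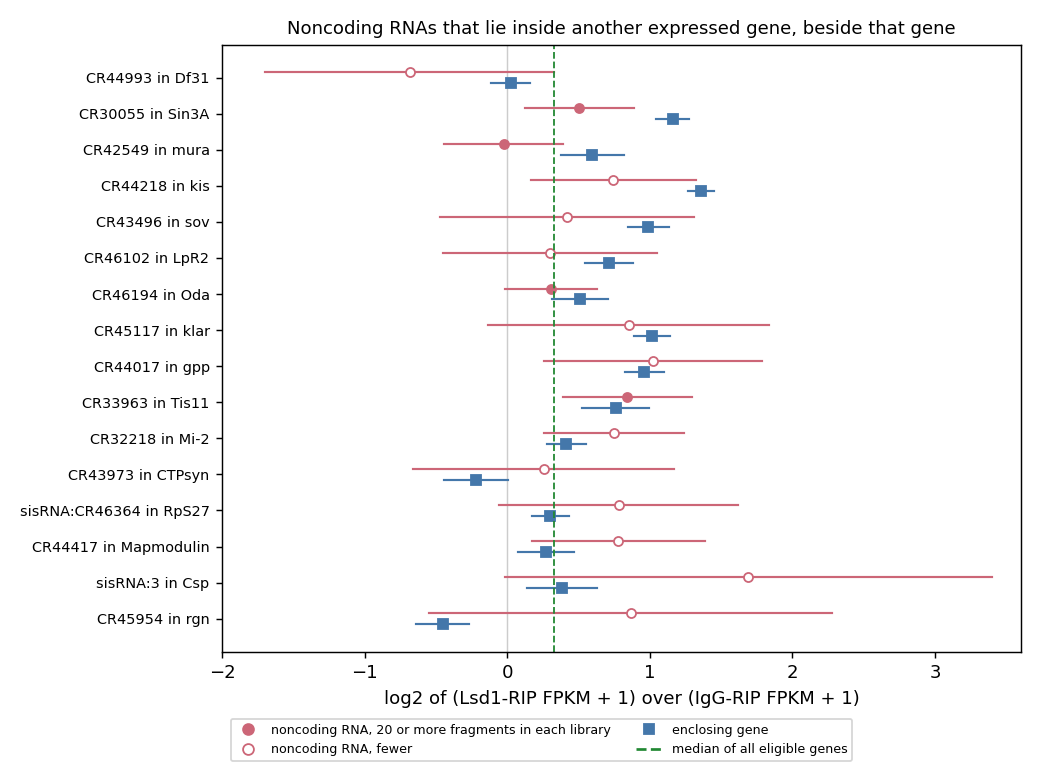
Log2 ratios, with intervals, of the 16 noncoding RNAs above 0 in both libraries that lie inside an eligible gene (red circles, filled with 20 or more fragments in each library) and of that gene (blue squares), ordered by their difference. RNA and gene intervals overlap except for lncRNA:CR30055 in Sin3A, and the dashed line is the all-gene median of 0.32; where several genes enclose an RNA, the one with the most fragments is drawn.

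The remaining hosts have metabolic, structural or other roles and held RNAs of few fragments. lncRNA:CR44417 (2R:17869027-17869857) in Mapmodulin, a member of the ANP32 family, had 0.982 and 2.40 FPKM, a log2 ratio of 0.78 (0.17 to 1.38) beside 0.27. lncRNA:CR46102 (3R:25738027-25738689) in the lipophorin receptor gene LpR2 had 0.993 and 1.45, a ratio of 0.30 beside 0.72. lncRNA:CR43973 (3L:15098534-15099502) in CTPsyn, the CTP synthase gene, had 0.937 and 1.31, a ratio of 0.26 beside -0.22. These values come from at most 22.8 fragments per library for the noncoding RNA, and every interval overlapped that of the host.

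lncRNA:CR45954 (3L:21413303-21413643) in rgn had 0.489 and 1.71 FPKM from 1 and 3 fragments, and lncRNA:CR45117 (3L:527671-528129) in klar, a gene for nuclear positioning, had 0.473 and 1.66 from 1.99 and 6. Both plain folds were 3.50, but the intervals of both log2 ratios spanned 0. rgn itself had the opposite order, 6.97 and 4.83 FPKM, and klar had 6.07 and 13.3. For lncRNA:CR45117 the log2 ratio was 0.85 beside 1.02 for klar, and by fragments 1.81 beside 0.58.

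Inside or across ftz-f1, an orphan nuclear receptor gene, lie 2 members. lncRNA:CR45939 (3L:18772086-18801312) has a locus of 29227 nt that shares nearly all of its span with ftz-f1, and it went from 0.937 (0.554 to 1.32) to 2.02 (1.43 to 2.61) with 23.9 and 46.8 fragments. Its bounds were apart and its log2 ratio was 0.64 (0.24 to 1.04), beside 0.48 (0.28 to 0.68) for ftz-f1, an overlap. lncRNA:CR45938 (3L:18753797-18754085) was listed at 0 in the control and at 2.99 (0 to 6.44) with Lsd1, from 3 fragments. lncRNA:CR44886 (X:3313333-3348400, 35068 nt), which overlaps dnc, the cAMP phosphodiesterase gene, and holds CG10793, was the reverse, at 7.86 (0 to 19.0) from 1.99 fragments in the control, with a listing of 0 for Lsd1. No fold is given for either.

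The 11 free loci are those whose span no other listed gene overlaps. Whether their fragments also map elsewhere was not tested. Beside lncRNA:CR40469, flamenco and IBIN, the best measured were lncRNA:CR43685 and lncRNA:CR45102. lncRNA:CR43685 (3R:7092347-7093707), 227 nt from e(y)2b, had 2.10 (1.38 to 2.82) and 3.50 (2.53 to 4.47) FPKM, a log2 ratio of 0.54 (0.08 to 0.99). lncRNA:CR45102 (X:3701857-3703285), 184 nt from the Myc antagonist gene Mnt, had 1.52 (0.992 to 2.04) and 2.03 (1.38 to 2.68), a ratio of 0.27 (-0.16 to 0.70). In both, the bounds of the libraries overlapped.

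Of the free loci with fewer fragments, lncRNA:CR44608 (2L:4228921-4229458), 359 nt from the ribosomal protein gene RpL40, had 1.40 and 2.45 FPKM, a ratio of 0.52. lncRNA:CR45433 (3L:19861458-19861869) had 0.895 and 1.74, a ratio of 0.53, and lncRNA:CR44263 (3R:31758710-31759360), 43 nt from Smvt, had 1.55 and 1.32, a ratio of -0.14. All 3 intervals spanned 0.

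On X between ct and CHES-1-like, 3 free loci follow each other with gaps of 346 and 481 nt. lncRNA:CR45667 (X:7679331-7679621) had 1.66 (0 to 4.02) and 1.94 (0 to 4.69) FPKM from 1.99 fragments in each library. lncRNA:CR45666 (X:7679968-7680520) went from 0.501 (0 to 1.32) to 3.77 (0 to 10.4), a log2 ratio of 1.67 (-0.49 to 3.83), but by fragments it had 1.503 and 1.28, with a log2 ratio of -0.00876. lncRNA:CR45665 (X:7681002-7681278) was listed at 0 in the control and at 4.71 (0 to 9.43) with Lsd1, from 4 fragments. All bounds in this run of loci reached 0, and the FPKM and fragment folds of lncRNA:CR45666 differed 7.59-fold, so no direction is given for it.

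The limit of 1 FPKM cuts through a dense part of the list. Just inside it lay lncRNA:CR45117 with a mean of 1.06 and lncRNA:CR45954 with 1.10, and just outside lay lncRNA:CR43242 with 0.992, lncRNA:CR32027 with 0.980, lncRNA:CR43962 with 0.977, lncRNA:CR44779 with 0.952 and lncRNA:CR43918 with 0.937. Of those just outside, lncRNA:CR43242 had 0.747 FPKM in the control and 1.24 with Lsd1, lncRNA:CR32027 had 0.835 and 1.13, and lncRNA:CR43918 had 0.865 and 1.01. lncRNA:CR44779 had 0.514 and 1.39, a plain fold of 2.71, and lncRNA:CR43962 had 1.95 from 0.459 fragments and was then listed at 0. Of these 5, lncRNA:CR43962 was thus the one with the lower value in the Lsd1 library. Of a list of 19 characterised fly noncoding RNAs, 17 are in the tables and 2, flamenco and sisRNA:3, are members. iab8, bxd, CRG, cherub and let7C, which act in embryonic patterning, locomotion, neural stem cells or developmental timing, were listed at 0 in both libraries. yar (0.430 and 0.899 FPKM), sphinx (0.269 and 0.932) and noe (0.316 and 0.591) were detected below the limit. So were sisRNA:2 (0.202 and 0), roX2 (0.0470 and 0) and acal (0.0254 and 0), with the higher value in the control. Also listed at 0 in both were roX1, sisRNA:1 and sisRNA:4, and Hsromega, left aside by the rule, had 13.7 and 24.0.

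Beside the members, the 9 eligible antisense RNAs had a median log2 ratio of 0.81 and the 5902 eligible protein-coding genes 0.32. Of these 9, 2 were listed at 0 in one library, and 4 had 20 or more fragments in each. Of the antisense RNAs, 4 had bounds apart and higher in the Lsd1 library (44.4%), and of the protein-coding genes 36.3%, against the 13.2% of the members. The share of genes with 20 or more fragments in each library was 34.2% among the members and 90.8% among all eligible genes. With 1 library per group, whether the classes differ was not tested.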

How the data were processed

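Each library came as 1 table of FPKM values per gene, deposited by the authors with lower and upper bounds and a status, per the file headers. Cufflinks, SAMtools 0.1.18.0, Bowtie2 2.0.6.0 and build dm6 appear in the submitters' processing notes. The annotation and the options and version of Cufflinks are not given there. The 2 tables were joined on gene number and locus, and starts were counted from 1. The status HIDATA, a failed estimate, marked 25 loci per table and no member.

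The ratio used a pseudocount of 1, and its interval is 2 standard errors from the bounds. With bounds taken as 2 standard deviations, approximate fragments are the inverse square of the relative deviation. From 0.5 to 30 fragments, 32 of 49 member values (65.3%) and 41.7% of 7225 values over all genes were whole to within 0.02. Fragment ratios were divided by 0.856, the libraries' ratio of fragments per FPKM, from 892 genes with whole fragments in both. Loci sharing 1 base count as overlapping. Python 3.11.15 with pandas 2.3.3 was used, and the steps were tested on simulated data. Members and lists were chosen with earlier results of these data known. Every member is named; those past 2-fold, with bounds apart, or highest or lowest among the well measured have full values.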

Additional observations from a re-analysis of the deposited data

How the results depend on the processing

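With 1 library per group, intervals cover counting and assignment error only, and strand was not recorded. No paired analysis was possible because each group has 1 library. Equal sums below means the Lsd1 FPKM scaled so that both libraries sum alike over genes that are not ribosomal RNA loci. The median log2 ratio of 0.52 was 0.73 with a pseudocount of 0.1, 0.75 with none and 0.69 by fragments. It was 0.19 after centring on the all-gene median, 0.22 with equal sums and 0.0824 with no minimum level over 402 loci. It turned to -0.60 over the 7 RNAs with a mean of 5 FPKM or more. The same settings moved the all-gene median of 0.32 to 0.42, 0.44, 0.43, 0, 0.0313, 0.19 and 0.30. The 5 higher calls (2.12% of eligible genes) became 15 with a pseudocount of 0.1 (7.90%), 13 with none (8.75%), 14 by fragments (8.40%), 10 on the TPM scale (3.73%), 10 with no minimum level (1.62% of genes above 0), 16 at 1.5-fold (19.0%) and 3 above 0 in both libraries (1.71%). They were 0 at 5 FPKM (3.56%) and with 20 or more fragments (1.61%), and 2 among free loci or those sharing the smaller part of their span. Where the mean limit of 1 FPKM applied, higher calls with a control FPKM under 1 became members through the Lsd1 library. No excess of these counts over the shares is read. The 3 lower calls (0.697%) became 5 after centring (1.05%), 5 with no minimum level (0.641%), 6 at 1.5-fold (1.31%) and 1 above 0 in both (0.117%). They were 0 with 20 or more fragments (0.0548%), among free loci and among those sharing the smaller part. Bounds centred on the all-gene median were apart for 2 members higher and 2 lower, against 5 and 0, and for 15.8% and 5.28% of eligible genes, against 36.1% and 1.64%. For 24 overlapping RNAs the median log2 fragment ratio was 1.12 alone and 0.56 summed with the loci they overlap. Single RNAs gave 220 recomputed ratios under 6 settings, among them ratios of the 4 RNAs listed at 0 in one library. For those 4 the interval used rests on the bounds of the other library alone. Of the 220 ratios, 196 lay within that RNA's own interval. The sign turned in 10, over 7 RNAs: lncRNA:CR45666 to -0.00876 by fragments, lncRNA:CR43264 to -0.24 centred, -0.26 with equal sums and -0.00501 on the TPM scale, and lncRNA:CR45667 to -0.18 centred and -0.10 with equal sums. After centring, lncRNA:CR46194, lncRNA:CR43973, lncRNA:CR46102 and lncRNA:CR45102 lay between -0.0684 and -0.0184. The causes of these shifts were not tested.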
